A study of Mus musculus with 2 samples.

Results

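Foxp3-positive regulatory T cells of the mouse gum were followed as single-cell barcodes, chosen by their measured counts. A barcode was taken if it held at least 200 detected genes, at most 15% mitochondrial transcripts, at least 3 unique molecular identifiers (UMIs, each standing for 1 captured transcript) summed over the T cell receptor genes Cd3e, Cd3d, Cd3g and Trac, at least 1 Foxp3 UMI and 0 UMIs of the CD8 gene Cd8b1. The rule found 199 cells among 19705 barcodes that passed the gene and mitochondrial limits and 21376 barcodes in all. Of these, 128 cells lay in the WT library and 71 in the library labelled Otud1-/-. Foxp3, the receptor genes and Cd8b1 chose the cells, so their levels are a description and support nothing below.

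Regulatory T cells are CD4 T cells that restrain other immune cells, and the transcription factor FOXP3 holds their programme in place. They draw on interleukin 2 through a high-affinity receptor whose alpha chain is encoded by Il2ra, and they carry the inhibitory receptor CTLA4 and receptors of the TNF family such as OX40 (Tnfrsf4) and GITR (Tnfrsf18). In barrier tissues such as skin, gut and gum they often take on an effector form with the receptor ST2 (Il1rl1), KLRG1 and the growth factor amphiregulin (Areg), whereas those of lymph nodes keep the homing receptor CCR7.

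The study compared immune cells that had entered the gingiva of C57BL/6 mice, either wild type (WT) or carrying the Otud1-/- genotype, in a series on periodontal inflammation. OTUD1 is a deubiquitinase, an enzyme that takes ubiquitin off proteins. Each genotype was 1 library made with 10x Genomics 3′ chemistry, version 3.1, so there was no replicate and no test could be run. The sources used here give neither the number, age and sex of the animals, nor the treatment of their gums, nor the deleted stretch of Otud1, and the labels put both libraries in the same strain and tissue.

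The libraries held 44878537 and 44083735 UMIs, but the barcodes of the library labelled Otud1-/- were deeper, with a median of 4336.5 UMIs among kept barcodes against 2316. The limits on genes and mitochondrial UMIs removed 3.75% of WT barcodes and 14.5% of the others. The regulatory T cells had median depths of 5288 and 8342 UMIs, 1948 and 2640 genes and 3.48% and 3.40% mitochondrial UMIs, in that order. The libraries shared 37 barcode sequences, 30 of them after filtering, and none was among the regulatory T cells (0 shared). Otud1, on chromosome 2 from 19657752 to 19660583 in mm10, gave 14 UMIs in 12 WT cells and 12 UMIs in 9 cells labelled Otud1-/-, or 14.4 and 14.2 CPM, the field's unit for UMIs of a gene scaled to equal totals over all genes. The Otud1 level in these cells thus went against the knockout label, as it did in other CD4 T cells and B cells, where the log2 level labelled Otud1-/- was above WT by 1.34 and 0.88. Since the deleted stretch is not known, a 3′ tag may lie outside it and check nothing.

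The libraries differed in the sex of their cells. The X-inactivation transcript Xist was found in 76 of 128 WT regulatory T cells (59.4%), and another 23 (18%) held UMIs of the 4 Y-linked genes used and no Xist. In the library labelled Otud1-/-, Xist was found in 0 of 71 cells, which allows a share of up to 4.23%, and 59 cells (83.1%) held Y-linked UMIs. Results between libraries are therefore also given for the 23 and 59 cells with Y-linked UMIs alone. Transcripts of other cell types were also common. At least 2 UMIs summed over 7 genes of B cells, macrophages, plasmacytoid dendritic cells and neutrophils were found in 86 of 128 regulatory T cells (67.2%) and 39 of 71 (54.9%), and in 61.9% and 34.7% of other CD4 T cells. These are called mixed barcodes below. They may be doublets or hold free RNA, which was not tested, and no doublet caller was run. Without them 42 and 32 cells are left, and the results that follow are also given for those cells where they lead an account or turn.

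The threshold of 1 Foxp3 UMI was reached by most WT cells with nothing to spare. In WT, 93 cells held 1 Foxp3 UMI, 23 held 2 and 12 held 3 or more, whereas in the library labelled Otud1-/- the numbers were 26, 28 and 17. The cells just inside this limit carried markers that the rule did not use. In WT cells with 1 Foxp3 UMI, Ikzf2 stood at 511 CPM, Ctla4 at 321 and Tnfrsf4 at 357, against 159, 149 and 156 CPM in T cells with 0 Foxp3 UMIs just outside it. In the library labelled Otud1-/-, the same genes stood at 672, 507 and 929 CPM inside and 115, 109 and 149 outside. At the limit on receptor genes, 21 WT barcodes and 2 of the other library held Foxp3 and 2 receptor UMIs and were left out, while 23 and 1 cells sat just inside with 3. Another 43 and 3 barcodes held Foxp3 with 0 or 1 receptor UMI. In WT barcodes with 2 receptor UMIs, Ikzf2 stood at 693 CPM and Tnfrsf4 at 592. In the WT cells with 3 they stood at 465 and 340 CPM. Ctla4 went the other way, at 231 CPM in the barcodes with 2 and 499 CPM in the cells with 3. More WT barcodes with Foxp3 than barcodes of the other library thus fell outside this limit, which bears on the shares that follow. Barcodes with Foxp3 and Cd8b1 numbered 25 in WT, with a median of 12340 UMIs, and 3 in the other library, with a median of 16115.

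Under the rule as set, the share of regulatory T cells differed between the libraries by less than counting error, but not under each alternative given below. They were 128 of 12769 kept WT barcodes, or 1.002% (95% interval 0.837 to 1.19), and 71 of 6936 barcodes labelled Otud1-/-, or 1.02% (0.800 to 1.29). Of T cells without Cd8b1, they were 6.77% in WT (128 of 1892, 5.67 to 7.99) and 8.36% in the other library (71 of 849, 6.59 to 10.4), a difference of 1.60 percentage points (interval -0.48 to 3.9). Intervals of shares are exact Clopper-Pearson intervals, those of differences are Newcombe's, and all cover counting error only. Since a deeper barcode is more likely to yield a Foxp3 UMI, the shares were also read at equal depth. With every barcode thinned to 1000 UMIs, 14 of 647 WT T cells (2.16%, 1.19 to 3.60) and 7 of 305 T cells labelled Otud1-/- (2.30%, 0.928 to 4.67) met the rule. Thinned shares of all barcodes were 0.122% and 0.105%. At this depth no difference in frequency was detectable, and that of T cells was 0.131 points with an interval of -1.73 to 2.65.

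**Figure D1:**
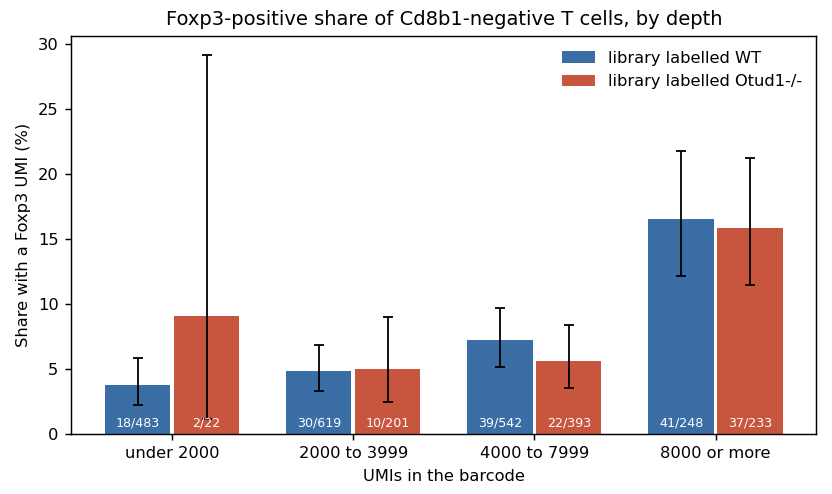
Share of Cd8b1-negative T cells with a Foxp3 UMI (y axis, percent) by the number of UMIs in the barcode (x axis), for the WT library (blue) and the library labelled Otud1-/- (red). Bars give the share, lines its exact 95% Clopper-Pearson interval, and the figures in the bars the cells; the share was highest at 8000 or more UMIs, at 16.5% in WT and 15.9% in the other library.

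The plot of the share by depth shows that deep barcodes met the rule at a higher share than shallow ones. Among WT T cells, 3.73% of those under 2000 UMIs, 4.85% from 2000 to below 4000, 7.20% from 4000 to below 8000 and 16.5% at 8000 or more held Foxp3. In the library labelled Otud1-/-, the shares were 9.09% (2 of 22 cells), 4.98%, 5.6% and 15.9%. Within each depth class the intervals of the libraries overlapped. Outside T cells Foxp3 was rarer. In B cells, which should lack it, a Foxp3 UMI was found in 29 of 4497 WT B cells (0.645%, median depth 2953) and 2 of 3528 B cells of the other library (0.0567%, median 4192), against T cell medians of 3446 and 5445. Among T cells with Cd8b1 the shares were 4.87% in WT (25 of 513, median 5488) and 1.04% in the other library (3 of 289, median 6233). Within WT, T cells with Xist held the rule's cells at 8.85% (76 of 859) and T cells with Y-linked UMIs alone at 5.30% (23 of 434). The share was 9.64% (59 of 612) among Y-linked T cells labelled Otud1-/-, 4.34 points above the WT cells of that kind (interval 1.06 to 7.47), at a median depth of 10908 against 5551 UMIs for the rule's cells. The cells of either sex within WT lay 3.55 points apart, a comparison chosen after seeing the data. With at least 2 Foxp3 UMIs asked for, the shares of T cells were 1.85% and 5.30%. That difference, of 3.45 points (interval 1.95 to 5.24), is not thinned for depth. With 1 Foxp3 UMI and a Cd4 UMI asked for, the shares of T cells differed by 1.41 points (0.024 to 3.08), again without thinning.

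The label held against markers that the rule did not use. CTLA4 takes costimulatory ligands away from antigen-presenting cells, and Ikzf2 encodes Helios, a transcription factor of stable regulatory T cells. Ctla4, on chromosome 1 from 60887000 to 60915832 in mm10, stood at 378 CPM in WT regulatory T cells and 463 CPM in those labelled Otud1-/-, against 183 and 158 CPM in other CD4 T cells, which are T cells with Cd4 but no Foxp3, Cd8a or Cd8b1 (399 and 274 cells). Ikzf2, on chromosome 1 from 69531214 to 69687245, stood at 543 and 660 CPM against 107 and 128. Tnfrsf4, on chromosome 4 from 156013843 to 156016612, stood at 367 and 824 CPM against 199 and 208. In both libraries and for each of these genes, the regulatory T cells were the highest of 10 gated cell types. B cells, which should lack all of them, lay at 24.3 CPM or lower. All of Ctla4, Ikzf2 and Tnfrsf4 were found together in 65 of 128 WT cells (50.8%) and 51 of 71 cells labelled Otud1-/- (71.8%), against 14.0% and 18.2% of other CD4 T cells, and 5 WT cells held none of the set. These shares are not thinned, and the regulatory T cells had median depths of 5288 UMIs in WT and 8342 in the other library, so the libraries are not compared by them. Cd4 itself was caught in 38.3% and 47.9% of the regulatory T cells. Cd8a was found in 7 WT cells (5.47%) and 0 of the 71 others (up to 4.23%), and the gamma delta receptor gene Trdc in 6 and 0.

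**Figure D2:**
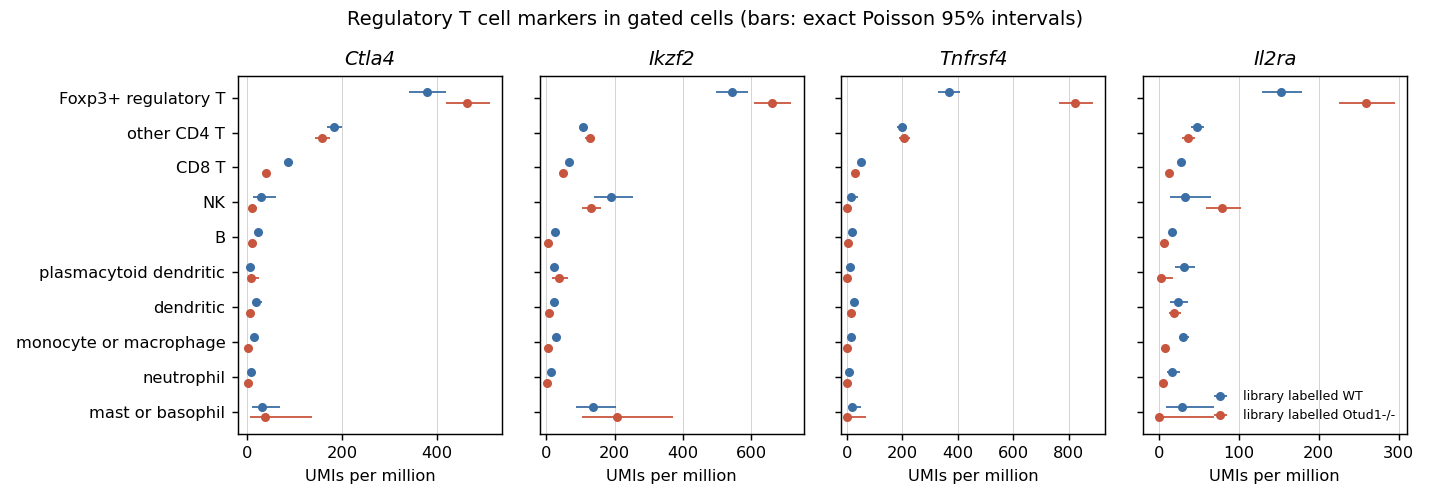
Levels of Ctla4, Ikzf2, Tnfrsf4 and Il2ra (x axes, CPM of each gate's summed UMIs) in 10 gated cell types (y axis) of the WT library (blue) and the library labelled Otud1-/- (red). Points are gate sums and lines are exact Poisson 95% intervals; for each gene the Foxp3-positive regulatory T cells are the highest gate in both libraries.

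The cells were then set against other CD4 T cells within each library, where free RNA and animals are shared. The other CD4 T cells had median depths of 4779 and 5726 UMIs. Differences are log2 ratios of CPM with 0.5 CPM added to each side, and brackets hold exact conditional binomial 95% intervals. A gene was compared at a mean of 50 CPM or more with 100 UMIs or more on the higher side, and counted as higher or lower from a ratio of 1.5 on. In WT, 90 of 2873 genes (3.13%) were higher in regulatory T cells and 67 (2.33%) lower, and in the library labelled Otud1-/- 191 of 2732 (6.99%) were higher and 163 (5.97%) lower. Of 2600 genes compared in both, 28 (1.08%) were higher in each library and 31 (1.19%) lower in each. Foxp3 is among the first and Cd4 among the second because of how the gates were set. The genes that were higher in both included receptors of the TNF family and the interleukin 2 receptor. Ikzf2 was higher by 2.34 (2.14 to 2.56) in WT and by 2.36 (2.16 to 2.57) in the other library, which is close to equal. Tnfrsf9, which encodes the costimulatory receptor 4-1BB, was higher by 2.09 and 2.92, Tnfrsf18 by 1.08 and 1.78, and Tnfrsf4 by 0.88 and 1.98. Il2ra, on chromosome 2 from 11642807 to 11693193, stood at 152 against 47.9 CPM in WT and at 259 against 36.5 CPM in the other library, a difference of 1.66 (1.32 to 2.02) and 2.81 (2.46 to 3.2).

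Other named genes that were higher in both libraries had varied roles. Hopx, a homeodomain protein found in some regulatory and effector T cells, was higher by 1.76 and 2.01. Itgav, the integrin alpha V chain, which pairs with integrins that release active TGF-beta, was higher by 1.23 and 1.41. Tent5a, an RNA-tailing enzyme, was higher by 1.16 and 1.57. Ccr2, a receptor for monocyte-attracting chemokines that T cells also use, was higher by 1.22 and 0.90. Ctla4 was higher by 1.05 and 1.55. Areg, whose product supports tissue repair, was higher by 1.35 and 2.41, but the WT difference was -0.02 without mixed barcodes. The other named genes lay between 1.20 and 3.59 in both libraries when mixed barcodes were left out.

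Genes of naive and central memory T cells were lower in the regulatory T cells. TCF1 (Tcf7) and LEF1 are transcription factors of resting T cells. Tcf7 stood at 28.8 against 85.7 CPM in WT and at 16.5 against 136 CPM in the library labelled Otud1-/-, a difference of -1.56 (-2.19 to -1.01) and -2.998 (-3.92 to -2.27). Lef1 differed by -0.97 and -2.58, the survival gene Bcl2 by -1.16 and -1.50, and Tnfsf8, which encodes the ligand of CD30, by -1.48 and -2.01. Gtf2i, a general transcription factor, differed by -1.46 and -2.22, the phosphodiesterase gene Pde3b by -0.90 and -1.58, and the membrane protein gene Ms4a4b by -1.01 and -1.09. Without mixed barcodes these genes lay between -3.12 and -1.05 in both libraries.

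**Figure D3:**
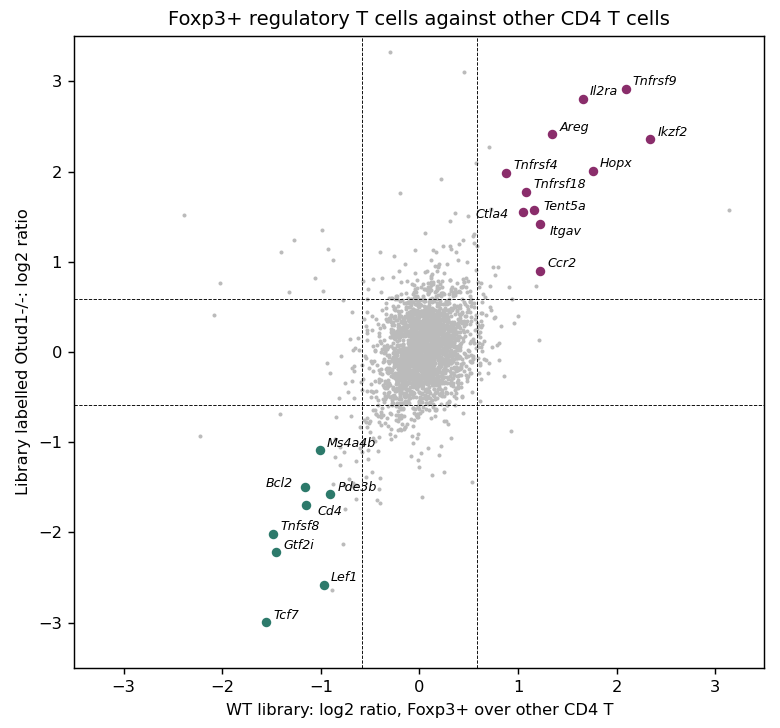
Log2 ratio of Foxp3-positive regulatory T cells over other CD4 T cells in the WT library (x axis) and in the library labelled Otud1-/- (y axis), 1 point per gene compared, Foxp3 left out. Dashed lines mark a ratio of 1.5 in either direction; named genes higher in both libraries are purple and those lower in both are green, with Ikzf2 at 2.34 and 2.36 and Tcf7 at -1.56 and -2.998.

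The gene lists showed which parts of the programme marked these cells. Genes of lists were read from a mean of 20 CPM on, a level at which 1.7% of all 5248 genes were higher in both libraries and 1.11% lower. In the regulatory T cell core list, 10 of 13 measured genes were higher in both, Foxp3 among them by the rule, and 0 were lower. Beside those already given, Itgae, the CD103 chain that binds E-cadherin, was higher by 2.01 and 2.77, Ikzf4, which encodes Eos, by 1.80 and 3.03, Capg, an actin-capping protein, by 0.73 and 1.58, and Nrp1 by 0.69 and 1.07. In the tissue and effector list, 8 of 18 genes were higher and 1 lower. Klrg1, an inhibitory receptor of effector lymphocytes, stood at 51.4 against 4.32 CPM in WT and 98.0 against 2.94 CPM in the other library. Il1rl1, the ST2 receptor for interleukin 33, stood at 88.4 against 9.37 and 103 against 14.7 CPM. Gata3, which ST2-positive regulatory T cells use, was higher by 1.41 and 1.497. The member that was lower was Cxcr6, a chemokine receptor of tissue T cells, which differed by -0.89 and -2.64. Il1rl1, Gata3 and Areg are also genes of group 2 innate lymphoid cells. They are 3 of the 5 markers used for those cells, whose sums of 321 and 409.7 CPM they mostly make up, so these sums say nothing separate, and the marker Il13 was at 0 in the library labelled Otud1-/-.

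The resting list went the other way, with 6 of 14 genes lower and 0 higher. Next to Lef1, Tcf7 and Bcl2, the egress receptor gene S1pr1 differed by -0.76 and -1.10, the chromatin organiser Satb1 by -0.72 and -1.41, and Igfbp4 by -0.83 and -3.67. Among suppressive mediators, Ctla4, Areg and Ebi3 were higher in both (3 of 9), the last by 1.08 and 1.45. Tgfb1, the gene of TGF-beta 1, differed by 0.41 and 0.22. Ifng, the type 1 helper cytokine gene, gave 13 UMIs in WT regulatory T cells against 149 in other CD4 T cells, and 0 against 337 in the library labelled Otud1-/-. These are sums over unequal sets and not levels. They come from 128 against 399 cells in WT and 71 against 274 in the other library, and the 0 is to be read with a floor of 3 UMIs. No gene passed the fold in both libraries in the lists of NF-kB (0 of 17), FOXP3 partners (0 of 22) and immediate early genes (0 of 27). Scaling by TMM would move all WT ratios against other CD4 T cells by -0.10, and the ratios given here do not hold that shift.

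The cells varied among themselves in how many of these genes were caught. Shares were read after thinning each cell to 1000 UMIs, which left 125 WT cells (3 were shallower) and 71 cells of the other library, with the unthinned share given second. Ikzf2 was found in 44% of WT cells (unthinned 77.3%) and 52.1% of cells labelled Otud1-/- (84.5%), against 2.45% and 0.400% of thinned B cells. Tnfrsf4 was found in 38.4% (73.4%) and 53.5% (94.4%), with intervals of 29.8 to 47.5 and 41.3 to 65.5 that overlapped. Il2ra was found in 16% (46.1%) and 21.1% (70.4%). The effector genes were caught in smaller shares of cells. At 1000 UMIs such a share follows the level of the gene, so it cannot show a separate group of cells. Klrg1 was caught in 8% and 9.86% of thinned cells (22.7% and 35.2% unthinned), against 0.254% of other CD4 T cells in WT and 0 of 274 in the other library (up to 1.09%). Il1rl1 was caught in 6.4% and 9.86%, Areg in 12% and 11.3%, Itgae in 5.6% and 9.86%, and Gata3 in 4.8% and 12.7%. For these genes the intervals of the libraries overlapped.

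Tbx21 and Ccr8 were scarce in the regulatory T cells and also in other CD4 T cells. Tbx21, which encodes the type 1 factor T-bet, and the chemokine receptor gene Ccr8 were each found in 0 of 125 and 0 of 71 thinned cells, which allows shares of up to 2.4% and 4.23%. Before thinning they were found in at most 3.13% of WT cells and 2.82% of the others. In thinned other CD4 T cells, Tbx21 was found in 1.53% and 0.73% and Ccr8 in 0.254% and 0.73%. Unthinned, Ccr8 was found in 3.13% of WT regulatory T cells against 0.251% of other CD4 T cells. In the library labelled Otud1-/- these shares were 1.41% and 1.46%. The lymph node homing gene Ccr7 was caught in 18.4% and 22.5% of regulatory T cells, against 24.2% and 32.8% of other CD4 T cells, with intervals that overlapped. B cells held it at 24.4% and 34.5% (unthinned 49.7% and 71.4%), so their share cannot stand for free RNA of this gene. The part of free RNA in the Ccr7 shares was not tested. Lef1 was caught in 4.8% and 4.23% of regulatory T cells against 13.7% and 24.8% of other CD4 T cells, and Tcf7 in 3.2% and 5.63% against 8.65% and 16.8%.

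Between the libraries, 1505 genes could be compared in the regulatory T cells. Of these, 76 (5.05%) were higher in the library labelled Otud1-/- by 1.5-fold or more and 94 (6.25%) lower, and the median log2 difference over all 1505 was -0.03. Differences between libraries are the level labelled Otud1-/- over that in WT on the log2 scale, and their intervals hold no variation between animals. In other CD4 T cells, 39 of the 76 lay on the same side (5 of them past the fold) and 78 of the 94 (12 past the fold). In B cells, 45 of the 76 (6 past the fold) and 80 of the 94 (23 past the fold) did so. The share of all 1505 genes on each side in those cells is not given, so these counts cannot be told from a general shift. Differences of genotype, sex of the pooled animals and library cannot be told apart, except as far as the cells with Y-linked UMIs allow. The Foxp3 level was 188 CPM in WT and 178 CPM in the other library, and the threshold on it was part of the rule.

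Among receptors, Tnfrsf4 was higher in the library labelled Otud1-/-. OX40 is a costimulatory receptor that supports the expansion and survival of regulatory T cells. Tnfrsf4 was found in 94 of 128 WT cells and 67 of 71 cells labelled Otud1-/-, at 367 and 824 CPM, a log2 difference of 1.17 (0.98 to 1.35). In cells with Y-linked UMIs alone the difference was 0.94, with 411 and 791 CPM, and in other CD4 T cells it was 0.06. It was 0.58 without mixed barcodes, just under the limit of 1.5-fold. The difference had 1 direction in each of these sets of regulatory T cells.

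Other receptors of the core depended on the cells taken. Il2ra was at 152 and 259 CPM, a difference of 0.76 (0.46 to 1.08), but of -0.09 in cells with Y-linked UMIs alone and of -0.19 without mixed barcodes. WT cells with Xist held 121 CPM of Il2ra (97.1 to 149), WT cells with Y-linked UMIs alone 266 (195 to 355) and Y-linked cells labelled Otud1-/- 250.4 (217 to 288). Within WT, Il2ra was thus higher in the Y-linked cells than in those with Xist, and these Y-linked cells lay beside those of the other library. Tnfrsf9 followed the same order, at 184, 330.02 and 318 CPM, and its difference of 0.63 between libraries turned to -0.35 without mixed barcodes. Tnfrsf18 differed by 0.73 in all cells, 0.42 in Y-linked cells and 0.29 without mixed barcodes.

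In the core list some genes were higher in the library labelled Otud1-/- and the result depended on the cells taken. Among its 15 measured genes 6 were higher by 1.5-fold or more and 0 lower, where 6.58% of all 5608 genes read from 20 CPM on were higher and 11.4% lower. The median difference was 0.43, against -0.06 over those 5608 genes. In Y-linked cells the median was -0.09, without mixed barcodes 0.20, and in other CD4 T cells -0.06. Besides Tnfrsf4, Il2ra and Tnfrsf18, the genes past the fold were Capg at 257 and 503 CPM, Ikzf4 at 33.9 and 72.0 CPM and the cytokine signalling inhibitor Socs2 at 17.5 and 44.9 CPM. The WT level of Socs2 may be background, and in Y-linked cells it stood at 46.3 and 44.5 CPM, a difference of -0.06. Ikzf2 differed by 0.28 and Ctla4 by 0.29. Il2rb, the beta chain of the interleukin 2 receptor, differed by -0.37, Nt5e (CD73) by 0.43, Itgae by 0.57, Izumo1r (folate receptor 4) by 0.14, Nrp1 by 0.33 and Lrrc32 (GARP, which anchors TGF-beta) by -0.30, and Gpr83 gave 4 and 1 UMIs. Among suppressive mediators, 2 of 12 genes were past the fold, Il10 at 33.9 and 66.1 CPM and Areg at 125 and 190.1 CPM. Without mixed barcodes the difference of Areg was 0.07 and that of Il10 turned, to -0.60.

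**Figure D4:**
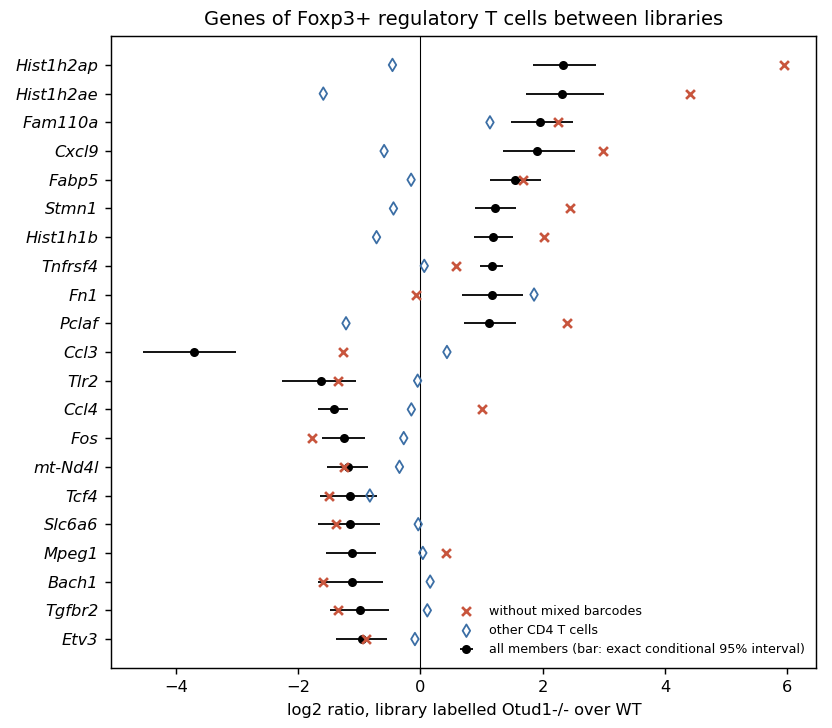
Difference between libraries (x axis, log2 of the level labelled Otud1-/- over that in WT) for the named genes of Foxp3-positive regulatory T cells (y axis). Black points and lines give all cells with exact conditional 95% intervals, red crosses the cells without mixed barcodes and blue diamonds other CD4 T cells; Tnfrsf4 lies at 1.17, 0.58 and 0.06. Camp, Ngp and Hbb-bs are not drawn, since 1 cell holds nearly all of their UMIs.

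Some named genes are known from other cell types, and for some 1 cell held most UMIs. Camp and Ngp, granule genes of immature neutrophils, gave 422 and 166 UMIs in the library labelled Otud1-/- and 0 in WT, at least 161-fold and 63.5-fold higher against a floor of 3 UMIs in the WT sum, but 1 cell held 419 and 164 of them. The 6 neutrophil markers summed to 641 CPM in WT cells and 4697 CPM in the others, against 1633 and 2097 in other CD4 T cells, with all 6 detected. Hbb-bs, a haemoglobin gene, gave 151 UMIs in WT, 147 of them in 1 cell, and 2 UMIs in the other library. Ccl3, Ccl4, Mpeg1, Tlr2 and Fn1 are genes of myeloid cells, and the 7 monocyte and macrophage markers summed to 2975 and 3011 CPM. The 5 mast cell and basophil markers summed to 220.1 and 10.6 CPM. The chemokine gene Ccl3 stood at 266 and 20.1 CPM, Ccl4 at 576 and 215 CPM, and Mpeg1 at 188 and 86.2 CPM. 1 WT cell held 131 of 259 Ccl3 UMIs, and 1 held 317 of 560 Ccl4 UMIs. Without mixed barcodes Ccl4 differed by 1.01 and Mpeg1 by 0.42, each in the opposite direction, and Fn1 went from 1.16 to -0.07. Tlr2 differed by -1.63, and by -1.36 without them. Cxcl9, an interferon-induced chemokine, stood at 33.9 and 129 CPM, with 61 of its 109 UMIs in 1 cell. The part of other cells' transcripts in these differences was not tested.

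Fam110a was higher and Fos lower in the library labelled Otud1-/-. Fam110a, a centrosome-associated protein, was found in 30 of 128 and 41 of 71 cells, at 44.2 and 174 CPM, a difference of 1.96 (1.47 to 2.50). Its difference was 2.25 without mixed barcodes, 2.13 in Y-linked cells and 1.14 in other CD4 T cells, so it was higher in the library labelled Otud1-/- in each set. Fos, an early gene of activation and also of tissue dissociation, was found in 64 and 26 cells, at 267 and 112 CPM, a difference of -1.25 (-1.61 to -0.91). It differed by -1.77 without mixed barcodes, -1.07 in Y-linked cells and -0.27 in other CD4 T cells. In B cells Fos differed by -1.03, so a lower level was not particular to the regulatory T cells. Fabp5, a fatty acid carrier, was higher by 1.54 (72.0 and 210.2 CPM), by 1.67 without mixed barcodes and by 1.95 in Y-linked cells. After thinning to equal depth, the Fabp5 difference was only 0.23, under the limit of 1.5-fold, so its size depended on depth or on the cells that weigh most. Which of these was not tested. In other CD4 T cells Fabp5 differed by -0.15. The transcription factor genes Tcf4, Bach1 and Etv3 differed by -1.16, -1.12 and -0.96, the taurine carrier gene Slc6a6 by -1.15, the TGF-beta receptor gene Tgfbr2 by -0.99 and the mitochondrial gene mt-Nd4l by -1.18. Tcf4 is also a marker of plasmacytoid dendritic cells, whose 5 markers, all detected, summed to 548 and 341 CPM.

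**Figure D5:**
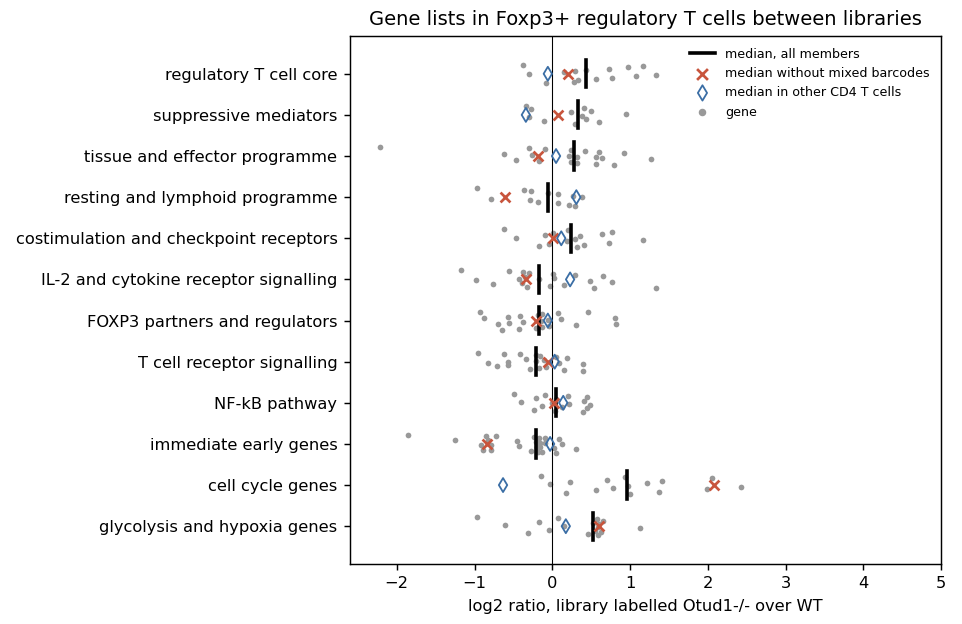
Difference between libraries (x axis, log2 of the level labelled Otud1-/- over that in WT) for genes of 12 lists (y axis) in Foxp3-positive regulatory T cells, 1 grey point per gene. Black lines are medians over all cells, red crosses medians without mixed barcodes and blue diamonds medians in other CD4 T cells; cell cycle genes have a median of 0.96, 2.08 and -0.63.

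Part of the immediate early genes, which cells switch on within minutes of a signal, were lower in the library labelled Otud1-/-. Past 1.5-fold, 9 of 27 measured genes were lower and 0 higher, where 11.4% of all 5608 genes read from 20 CPM on were lower and 6.58% higher. The list had a median of -0.21, of -0.84 without mixed barcodes and of -0.03 in other CD4 T cells. Next to Fos, Jun stood at 184 and 96.8 CPM, Nr4a2, a gene induced by receptor signals, at 137 and 73.2 CPM, and Egr1 at 172 and 47.2 CPM. The Egr1 level in WT was under 10% of that in another cell type of the library and may be background. Junb differed by 0.05 and Jund by 0.12, so the list did not move as a block. Of T cell receptor signalling genes, 4 of 21 were lower and 0 higher, a count to be read against the 11.4% lower among all genes. Among the lower genes was Plcg1, a phospholipase of receptor signalling, at 37.0 and 18.9 CPM. Of NF-kB genes, 0 of 17 passed the fold in either direction, with a median of 0.04.

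Cell cycle genes were higher in the library labelled Otud1-/-. Past 1.5-fold, 11 of 16 were higher and 0 lower, against 6.58% and 11.4% of all genes read from 20 CPM on. The median was 0.96. Mki67 stood at 65.8 and 130 CPM, the mitotic kinase gene Cdk1 at 6.17 and 35.4 CPM, Birc5 at 11.3 and 48.4 CPM and Ube2c at 8.23 and 34.2 CPM. Stmn1 was higher by 1.21, the replication factor gene Pclaf by 1.12 and the histone genes Hist1h2ap, Hist1h2ae and Hist1h1b by 2.33, 2.32 and 1.18, with 59 of 177 Hist1h2ap UMIs in 1 cell. Cells with UMIs of at least 2 of 6 mitosis genes numbered 13 of 128 in WT (10.2%, 5.52 to 16.7, median 12905 UMIs) and 12 of 71 in the other library (16.9%, 9.05 to 27.7, median 18761 UMIs), so these were deep barcodes and the intervals overlapped. Without mixed barcodes they numbered 2 of 42 (4.76%, 0.582 to 16.2) and 8 of 32 (25%, 11.5 to 43.4). Mki67 was found in 5.6% and 7.04% of thinned cells, and in 9.54% and 3.003% of thinned B cells. In other CD4 T cells the cycling share was 20.1% in WT and 8.39% in the library labelled Otud1-/-, the opposite order.

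Among other lists, glycolysis and hypoxia genes had 5 of 17 higher and 2 lower, with a median of 0.52 and of 0.01 without the cycling cells. List counts in this paragraph are to be read against the 6.58% higher and 11.4% lower among all genes, and that of the resting list lies near them. Gapdh stood at 848 and 1221 CPM, Eno1 at 107 and 168 CPM, and Hk2, in the other direction, at 51.4 and 26.0 CPM. The chemokine receptor genes Cxcr3 and Cxcr6, which type 1 T cells use, were lower. Cxcr3 was found in 22 WT cells and 7 cells labelled Otud1-/-, at 43.2 and 13.0 CPM (-1.70, -2.84 to -0.75), and Cxcr6 in 25 and 7 cells, at 67.9 and 14.2 CPM (-2.22, -3.28 to -1.36). They differed by -2.32 and -2.37 in Y-linked cells and by -0.75 and -0.47 in other CD4 T cells. Ccr4, the receptor by which many regulatory T cells enter skin, stood at 15.4 and 37.8 CPM, and Klrg1 at 51.4 and 98.0 CPM, though without mixed barcodes Klrg1 differed by -0.33. The tissue and effector list had 5 of 20 genes higher and 2 lower, with a median of 0.28, of -0.05 in Y-linked cells and of -0.18 without mixed barcodes. In the resting list 0 of 13 were higher and 2 lower, Lef1 at 72.0 and 36.6 CPM and Tcf7 at 28.8 and 16.5 CPM, the latter with an interval of -1.84 to 0.17.

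The counts of the lists that follow are to be read against the 6.58% higher and 11.4% lower among all genes at this level, and several lie near them. FOXP3 partners and regulators had 2 of 22 genes higher and 4 lower. Runx1, a binding partner of FOXP3, stood at 176 and 92.1 CPM, a difference of -0.93 (-1.34 to -0.54), of -1.31 in Y-linked cells and of -0.04 in other CD4 T cells. Stub1, a ubiquitin ligase that acts on FOXP3, stood at 37.0 and 64.9 CPM. Of cytokine receptor genes, Tgfbr1 was at 75.1 and 33.1 CPM (-1.17, -1.87 to -0.54), with a difference of -1.97 in Y-linked cells, lying on the same side as Tgfbr2. Mitochondrially encoded genes had 4 of 13 lower and 0 higher, with a median of -0.33 and of -0.0042 in other CD4 T cells, and 0 of 80 ribosomal protein genes were higher and 5 lower. Of interferon-stimulated genes 6 of 22 were higher and 2 lower, with a median of 0.08, and for Ifit1 1 cell held 34 of 44 UMIs. Of OTU-family deubiquitinases, 0 of 7 measured genes passed the fold, and Otulin, which trims linear ubiquitin chains, stood at 113 and 76.7 CPM. Of costimulation and checkpoint receptors 4 of 16 were higher and 1 lower, of interleukin 2 and cytokine receptor genes 3 of 21 were higher and 3 lower, and of homing receptors and integrins 3 of 24 were higher and 5 lower. Of type 1 helper genes 0 of 6 were higher and 3 lower, of type 2 genes 1 of 5 and 0, of type 17 genes 1 of 6 and 2, and of follicular helper genes 0 of 5 and 0. Heat shock genes had 2 of 10 higher and 1 lower, survival and death genes 3 of 19 and 1, and MHC class I genes 0 of 15 and 1. Scaling by TMM or by the median of ratios raised all differences between libraries by 0.08, which turned the median of the resting list from -0.05 to 0.04 and 0.03.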

How the data were processed

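The deposited files were count matrices with whole-number UMI counts per gene and barcode, without normalization, per the file headers. Cell Ranger 5.0.0 and Seurat 3.2.3 with build mm10 are named in the submitters' processing notes, while the matrix headers name version 6.0.1. Barcodes were filtered and gated as the report states, and their UMIs were summed per gate and library in Python 3.11.15 (numpy 2.4.6, scipy 1.17.1). Other scalings used TMM factors (edgeR 4.0.16) and median of ratios (DESeq2 1.42.0), for scaling only. The code that computes the ratios was checked on simulated counts with known fold changes. The 2 libraries are 1 per group, so no p-value is given. The cells and the lists were chosen with earlier results of these data known, and 2 alternatives were added after seeing the data. The ribosomal and mitochondrial lists, the mitosis gene rule and the gates of cells other than B and T cells were set after the files were read.

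Named genes between libraries were the 12 highest and 12 lowest ratios, and against other CD4 T cells the 12 highest and 8 lowest by the smaller ratio of both libraries, all at 1.5-fold or more. Genes of antigen receptors, Xist, Y-linked genes, Otud1 and unnamed gene models were left out, as were genes under 10% of their level in a non-T cell gate of at least 100 cells and genes that lose the fold without their highest cell. In addition, the core list, up to 4 genes of largest ratio per list and the genes of the shares were named. Junb, Jund, Eno1, Ifng, Plcg1, Stub1, Otulin and a few other list members were chosen after their values were seen. Coordinates come from the GENCODE annotation of mm10. Some genes are not reported here.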

Additional observations from a re-analysis of the deposited data

Results flagged for a closer look

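For 2 genes the difference between Foxp3-positive regulatory T cells and other CD4 T cells had opposite signs in the libraries, and this difference was not tested, since there is 1 library per genotype. Il10, the gene of an inhibitory cytokine, differed from other CD4 T cells by -1.10 on the log2 scale in WT (33.9 against 73.1 CPM) and higher by 0.78 in the library labelled Otud1-/- (66.1 against 38.2 CPM), a gap of 1.88. Without mixed barcodes it was higher in both, by 2.02 and 3.01. Birc5, a mitosis and survival gene, differed by -2.23 in WT (11.3 against 54.8 CPM) and higher by 0.73 in the other library (48.4 against 29.0 CPM), a gap of 2.96.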

How the results depend on the processing

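Of 942 alternative values of single genes and list medians, 872 kept their direction, 735 stayed within the counting interval or the spread of the list, and 15 of those past 1.5-fold turned. Without mixed barcodes the log2 differences between libraries turned to -0.070 for Fn1, 1.01 for Ccl4, 0.42 for Mpeg1 and -0.19 for Il2ra, and that of Areg against other CD4 T cells in WT to -0.024. In cells with Y-linked UMIs alone they turned to 1.82 for Hbb-bs and -0.089 for Il2ra, in cells with Cd4 to 0.36 for Hbb-bs, with at least 2 Foxp3 UMIs to 0.20 for Ccl3 and 1.46 for Ccl4, and after thinning to 0.52 for Tgfbr2. Without cycling cells, an alternative chosen after seeing the data, they turned to -0.55 for Stmn1, -0.23 for Hist1h1b, -1.99 for Pclaf and -0.35 for the median of cell cycle genes. The cells left out were chosen by mitosis genes in both libraries, which lowers such genes on each side, so no conclusion is drawn from these turns. Core and list genes outside those 942 values also turned, among them without mixed barcodes to -0.60 for Il10, -0.33 for Klrg1 and -0.35 for Tnfrsf9, and in Y-linked cells to -0.06 for Socs2. The cause was not tested. The difference in share of kept barcodes was 0.375 points (interval 0.179 to 0.606) with at least 2 Foxp3 UMIs. Without mixed barcodes it was 0.909 (0.236 to 1.74), but there mixed barcodes of all cell types also left the total. That total fell to 4026 and 1639 barcodes, so this value also depends on the B and myeloid cells of each library. Of T cells without mixed barcodes, the shares differed by 1.03 points (-1.34 to 3.65). In Y-linked cells the difference in share of kept barcodes was 0.523 (0.025 to 0.988), and that of T cells was 4.34. Between libraries, the 76 higher genes became 134 in Y-linked cells, 4 after thinning, 965 with no minimum level and 35 without cycling cells, and the 94 lower genes became 54 with at least 2 Foxp3 UMIs, 28 without mixed barcodes, 12 after thinning and 1652 with no minimum. Against other CD4 T cells, the 28 higher genes became 11 after thinning, 74 by the mean over cells, 18 at 100 CPM or more and 291 with no minimum, and the 31 lower genes became 2, 13 at 100 CPM and 289 with no minimum. Thinning left 158 genes to compare between libraries in place of 1505. No paired analysis was possible because each genotype is 1 library, and no replicate could be left out for the same reason. Depth limits the shares, since few cells thinned to 1000 UMIs held Foxp3.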
